A study of Mus musculus with 16 samples.

Results

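The mRNAs that encode the proteins of the cytosolic ribosome were followed in polysomal and subpolysomal RNA of mouse hepatocytes in which eIF6 was or was not depleted. They were chosen by gene symbol from the probe annotation of the arrays, as every Rpl or Rps symbol that names a cytosolic ribosomal protein, together with Rpsa. The kinases of the Rps6k family and the mitochondrial ribosomal proteins were left out, and genes of ribosomal proteins whose symbols do not follow this pattern, such as Fau and Rpl36al, are counted with other mRNAs. The rule found 84 of the 30214 gene names on the array, of which 50 encode proteins of the large subunit and 34 proteins of the small subunit. A gene was tested when at least 1 of its probes was well above background on 2 or more arrays of at least 1 group. This held for 80 of the 84 genes (47 of the large and 33 of the small subunit) and for 19367 genes in all. The 4 genes that did not pass were the copies Rpl3l, Rpl10l, Rpl39l and Rps4y2. No gene passed only through a group in which it was high, since each of the 80 had a probe well above background on all 16 arrays.

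AML12 is a mouse hepatocyte line that does not form tumours, grown here in medium with an insulin, transferrin and selenium supplement and dexamethasone. They carried a lentiviral, doxycycline-inducible shRNA that was either a scramble sequence or directed against eIF6, as the study describes it. The sample labels write only shRNA for the latter. All cells received doxycycline, and all received insulin for 1 h before lysis, at 100 nM in one label and 100 mM in another. Lysates were separated on sucrose gradients, and the lighter fractions were pooled as subpolysomal RNA and the heavier fractions as polysomal RNA. The 4 groups (scramble subpolysomal, scramble polysomal, eIF6 shRNA subpolysomal, eIF6 shRNA polysomal) had 4 one-colour arrays each. There were no arrays of cells without insulin or of unfractionated RNA. The replicates are described as biological, and whether each came from its own infection is not stated, so p-values measure the spread between these samples.

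Ribosomal protein mRNAs are among the most abundant transcripts of a growing cell. Most of them begin with a terminal oligopyrimidine (TOP) tract, a C followed by a run of C and T at the 5′ end, and their loading on ribosomes follows growth signals such as insulin through the mTOR pathway. eIF6 is an initiation factor that binds the free large subunit, close to Rpl23 and Rpl24, and keeps the small subunit from joining it too early. mRNA that is not being translated, or that carries few ribosomes, stays in the light part of a gradient, whereas mRNA with many ribosomes sediments as polysomes.

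The start sequences are shown because the TOP tract is the feature that this gene family is known for. RefSeq start windows (GRCm38.p6) were at hand for 62 of the 84 genes, and 59 of those 62 were tested. A C exactly at the annotated start followed by at least 4 C or T was found in 13 of the 62 genes (21%), against 813 of 27025 genes in all (3.01%). When the tract was allowed to begin within 10 bases of the annotated start it was found in 34 of the 62 genes (54.8%), against 26.8% of all genes. The following windows give 6 bases before the annotated start and 18 bases from it, 5′ to 3′ on the strand of the gene. They are those of Rps6 (chr4:86857350-86857373, minus strand), Rps15a (chr7:118116130-118116153, minus), Rps27 (chr3:90213631-90213654, minus), Rplp2 (chr7:141447645-141447668, plus) and Rpl14 (chr9:120571511-120571534, plus). Capitals mark the C at the annotated start and the C and T that follow it. In each of these windows the run of C and T also reaches back before the start.
Rps6: tcgggcCTCTTTTTCgtgacgcct
Rps15a: tgccatCTTCCCTCgccggtgagt
Rps27: ttcgctCCTTTCCggcggtgacga
Rplp2: gtcttcCTTTCgccgccggacgcc
Rpl14: ctctctCTTCTCgctgagcgccgc
Other members had no C at the annotated start, among them Rpl18 (chr7:45718065-45718088, plus), Rpl27a (chr7:109519189-109519212, plus) and Rpl5 (chr5:107900522-107900545, plus). In the window of Rpl18 a pyrimidine run lies beside the annotated start. In that of Rpl27a a run covers the annotated start, where the base is a T. In that of Rpl5 the bases around the start are mixed.
Rpl18: caggccgctctttccccgcccact
Rpl27a: agctcctcccttttccctttctgc
Rpl5: gcttgcgtgctggtggtgctacat
The motif CTTTCC was searched in 250 bases before and 50 bases after the annotated start, so that most of the searched stretch lies before the mRNA begins. The motif lay on the strand of the gene in 25 of the 62 genes (40.3%) and in 16% of all genes. On the opposite strand it lay in 12 of the 62 (19.4%) and in 16.1% of all genes.

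Values below are log2 signals after quantile normalization of all 16 arrays, averaged over the probes of a gene. An eIF6-dependent change is eIF6 shRNA minus scramble within a fraction. The polysome ratio is polysomal minus subpolysomal signal within an shRNA, and the change in translational efficiency is the difference between the polysome ratios of both shRNAs. Genes were called at an adjusted p under 0.05 (limma, Benjamini-Hochberg over all 19367 genes). Quantile normalization gives every array the same distribution, so each value describes the place of an mRNA among the mRNAs of its fraction and not its amount. In bulk RNA of a fraction, fewer cells that express a gene and less RNA of it per cell cannot be told apart. The number of arrays limits the precision.

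The target of the shRNA was lower on polysomes and not in subpolysomal RNA. Eif6 had a polysomal log2 signal of 12.94 to 12.96 on the 4 scramble arrays and a mean of 11.89 ± 0.084 (SD, n = 4) on the eIF6 shRNA arrays, all of them below the scramble arrays. Its subpolysomal signal ranged from 11.53 to 11.66 in scramble cells and from 11.49 to 11.74 in eIF6 shRNA cells, and these ranges overlapped. The polysomal change was -1.05 (SE 0.079), the subpolysomal change 0.02 (limma adjusted p = 0.915). Between 20196 and 24960 probes per array were well above background, and no spot was saturated. Of 9 hepatocyte marker genes with a probe, 4 were well above background on all 16 arrays, Hnf4a among them. Alb was so on 7 arrays and Fgb on none. All 6 fibroblast and stellate cell genes were tested, 5 of them being well above background on all 16 arrays, and their mean log2 signal was 11.63 and 11.91 in scramble subpolysomal and polysomal RNA against 10.35 and 9.15 in eIF6 shRNA cells. Of the other lists, 3 of 4 cholangiocyte genes, 2 of 4 endothelial genes and 1 of 4 blood cell genes were well above background on all 16 arrays, and Cdh5 and Hbb-b1 were so on none. The part of such genes in the results below was not tested.

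Ribosomal protein mRNAs were bright on these arrays. Their mean log2 signal ranged from 8.59 to 18.67 with a median of 16.87. Their median rank lay at the 98.7th percentile of all genes tested, and 69 of the 80 lay at or above the 95th. Of the 187 probes kept for them, 186 were well above background on all 16 arrays. The median deviation of the members from their means over all arrays was -0.25 on the polysomal array of scramble replicate 4. It was -0.10 to -0.02 on the other 3 of that group. The check for outlying values given further below did not flag this array for this measure. The number of probes per gene was 1 for 18 members and 2 to 7 for the other 62.

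In subpolysomal RNA, many ribosomal protein mRNAs had a higher signal in eIF6-depleted cells. Of the 80 genes, 28 rose and 2 fell, against 11.9% of all genes that rose and 12.3% that fell. The 28 were 19 of 47 genes of the large subunit and 9 of 33 of the small subunit, and both genes that fell, Rps24 and Rps2, belong to the small subunit. The median change was 0.17 over the 80 genes (0.19 over the large and 0.10 over the small subunit) against 0.02 over all genes, and 64 of the 80 values were above 0. Within each of the 4 slides, which held 1 array of every group, the median of the 80 genes lay between 0.15 and 0.18. The number that rose was 9 without the arrays of replicate 1, 13 without those of replicate 2 or of replicate 3 and 36 without those of replicate 4. It was 49 when arrays were scaled to their 75th percentile and 0 when they were scaled to the spike-in probes, with medians of 0.48 and 0.20.

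The largest subpolysomal increase was that of Rpl21, a large subunit protein whose 3 probes lie on chromosome 5 between chr5:147646040-147646581 and chr5:147648267-147648326 (mm9, plus strand). In scramble cells its subpolysomal log2 signal was 10.17, 10.32, 10.38 and 10.45 on the 4 arrays. In eIF6 shRNA cells it was 11.03, 11.03, 11.04 and 11.13. Every eIF6 shRNA array was thus above every scramble array, and the change was 0.72 (SE 0.10, 1.65-fold, limma adjusted p = 8.49e-05). On the 3 probes of Rpl21 the change was 1.04, 0.82 and 0.30, at mean log2 signals of 5.88, 9.92 and 15.93.

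Rps3, a small subunit protein at the mRNA entry channel, followed. Its subpolysomal signal was 13.99, 13.94, 13.76 and 13.84 in scramble cells and 14.59, 14.57, 14.37 and 14.32 in eIF6 shRNA cells, without overlap, which is a change of 0.58 (SE 0.11, limma adjusted p = 0.00156). From the dimmest to the brightest, the probes of Rps3 gave 0.74, 0.64 and 0.36. Rpl5, which with Rpl11 and 5S rRNA forms a particle of the large subunit, had values of 15.54, 15.42, 15.44 and 15.41 in scramble cells and of 16.08, 16.001, 16.05 and 15.82 in eIF6 shRNA cells. These did not overlap either, and the change was 0.53 (SE 0.08, 1.45-fold, limma adjusted p = 0.00018).

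Rps6, the small subunit protein that is phosphorylated by S6 kinases after insulin, is covered by 3 probes on the minus strand of chromosome 4 (the outermost at chr4:86500063-86500122 and chr4:86501867-86502058 in mm9). Its subpolysomal signal was 15.33 on each of the 4 scramble arrays and 15.81, 15.72, 15.79 and 15.77 on the eIF6 shRNA arrays. The groups were apart, with a change of 0.45 (SE 0.08, 1.36-fold, limma adjusted p = 0.000584). From the dimmest to the brightest, the probes of Rps6 gave 0.85, 0.30 and 0.19. The other 6 of the 10 largest increases were those of Rpl7a (0.44), Rpl27a (0.42), Rpl22 (0.41), Rpl14 (0.39), Rpl13a (0.37) and Rpl17 (0.36), all of the large subunit. Their adjusted p-values ranged from 0.00149 for Rpl27a to 0.0394 for Rpl7a (limma). The call was lost without replicate 1, 2 or 3 for Rpl7a, without replicate 1 or 2 for Rpl22, without replicate 1 for Rpl14 and without replicate 3 for Rpl17. For all 6 genes the subpolysomal increase was larger on the dimmest probe than on the brightest. The changes were 0.78 and 0.27 for Rpl7a, 0.55 and 0.30 for Rpl27a, and 0.81 and 0.01 for the 2 probes of Rpl22. They were 0.69 and 0.20 for Rpl14, 0.42 and 0.19 for Rpl13a, and 0.68 and 0.14 for Rpl17.

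Rps2, of the small subunit, went the other way. Its subpolysomal signal was 17.98, 17.93, 17.98 and 18.03 in scramble cells against 17.72, 17.77, 17.75 and 17.78 in eIF6 shRNA cells, without overlap, and it fell by 0.22 (SE 0.07, limma adjusted p = 0.0218). The subpolysomal calls of Rps2 and Rps24 were lost without replicate 1, 2 or 3, and the value of Rps2 was 0.04 when arrays were scaled to the 75th percentile.

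In polysomal RNA few members changed. Of the 80 genes none rose and 1, Rps24, fell, against 11.1% of all genes that rose and 10.7% that fell. At an unadjusted p under 0.05, 5 genes were higher and 2 lower (limma), against 16.7% and 14.9% of all genes, so that fewer members than genes in general passed either cut. The median change was 0.01 over the 80 genes, -0.00 over the large and 0.02 over the small subunit, and 0.02 over all genes. Changes ranged from -0.70 for Rps24 to 0.28 for Rpl22, with 35 values below and 45 above 0. When arrays were scaled to the spike-in probes the median was -0.41, while that of all genes was -0.48, so that the members stayed within 0.07 of the rest.

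**Figure D1:**
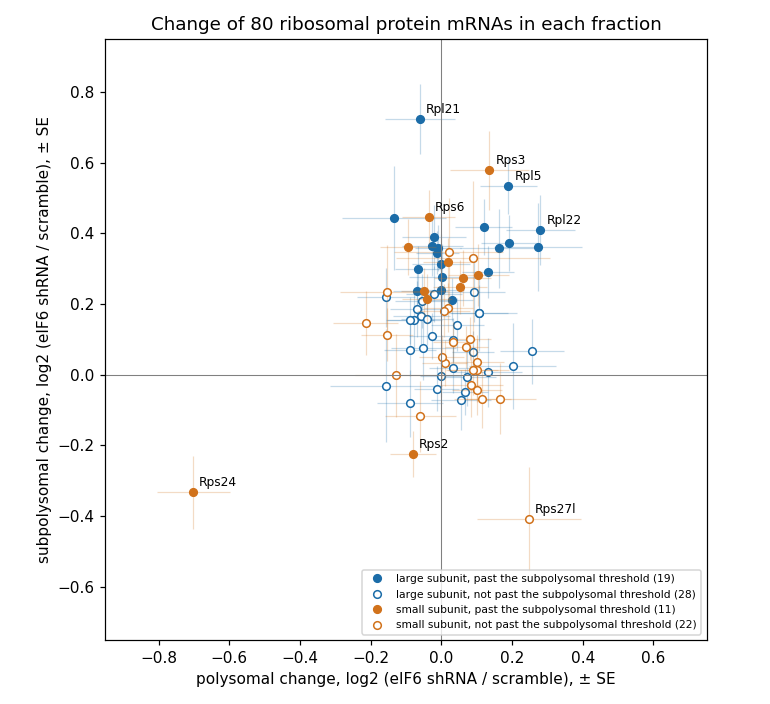
Polysomal change (x axis) and subpolysomal change (y axis), both as log2 of eIF6 shRNA over scramble, for the 80 ribosomal protein genes, with the large and the small subunit in different colours and bars for the SE of each change (4 arrays per group). Filled points are the 19 large and 11 small subunit genes past the threshold in subpolysomal RNA. Most points lie above 0 in height and near 0 from left to right, Rpl21 is highest at 0.72, and Rps24 is farthest to the left at -0.70.

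The 1 gene that fell on polysomes was Rps24, a small subunit protein whose mRNA is spliced in alternative ways at its 3′ end. Its polysomal log2 signal was 16.01, 15.81, 16.04 and 15.58 in scramble cells and 15.30, 15.12, 15.13 and 15.09 in eIF6 shRNA cells. The groups were apart, and the change was -0.70 (SE 0.10, 0.615-fold, limma adjusted p = 0.000131). In subpolysomal RNA the values were 16.45, 16.43, 16.28 and 16.37 in scramble cells and 16.19, 16.07, 16.03 and 15.91 in eIF6 shRNA cells, a change of -0.33 (SE 0.10, limma adjusted p = 0.0292). With the brightest probe alone the polysomal change was -0.03.

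The mean of Rps24 covers 4 probes that did not move together, and their sequences are shown because the probes match different numbers of transcript variants. The probes lie on the plus strand of chromosome 14 (mm9). The first, at chr14:25312695-25315015, spans a splice junction and is annotated to transcript variant 1. Of the RefSeq variants listed for the gene it matched 1. The second, at chr14:25311190-25312666, also spans a junction and is annotated to variant 2. The third, at chr14:25315021-25315080, lies beyond the first and is annotated to variant 3. The second and the third matched 3 RefSeq variants each. Neither is thus specific to the variant of its annotation, by which it is named below. The last, at chr14:25315026-25315075, overlaps the third and is annotated to a clone described as holding an apparent intron. Parts of the first 3 probes are printed, with a TGA at the end of the printed stretch of the first in capitals.
Rps24 probe of variant 1: aatgttggtgctggcaaaaagTGA
Rps24 probe of variant 2: tggccattatgagaagaaaaagacctcccg
Rps24 probe of variant 3: ttgatgttttgctgtgatgtgcagatttct
The probe of variant 1 had polysomal values of 16.33, 16.29, 16.40 and 15.97 in scramble cells and of 14.38, 14.40, 14.48 and 14.10 in eIF6 shRNA cells. Its subpolysomal values were 16.49, 16.63, 16.52 and 16.47 in scramble cells and 15.57, 15.35, 15.55 and 15.55 in eIF6 shRNA cells. In both fractions the groups were far apart. The polysomal change was -1.91 (SE 0.11), the subpolysomal change -1.02 and the change in translational efficiency -0.89 (SE 0.15, adjusted p = 0.0076 in a limma fit over all 25262 probes). The probe of variant 2 changed by -0.85 on polysomes (SE 0.20, adjusted p = 0.0068 in the same limma fit) and by -0.13 in subpolysomal RNA (adjusted p = 0.711). The remaining probes changed by -0.03 and -0.02 on polysomes and by -0.09 each in subpolysomal RNA. The fall of Rps24 was therefore that of 2 of its 4 probes.

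**Figure D2:**
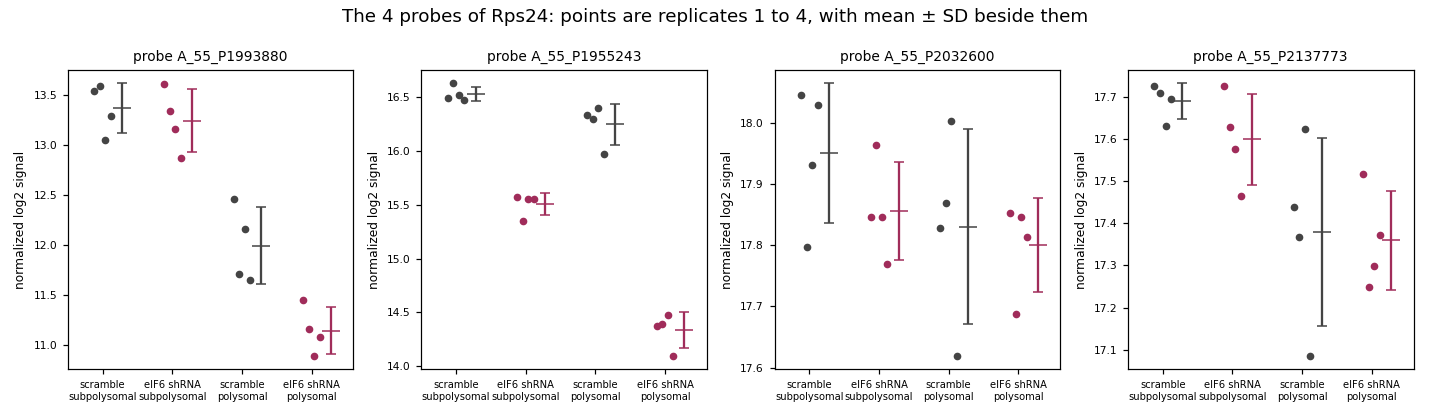
Normalized log2 signal of the 4 Rps24 probes on each of the 16 arrays, by fraction and shRNA, with the group mean and SD (n = 4). Panels from the left show the probes annotated to variant 2, variant 1, variant 3 and a clone. The probes annotated to variants 2 and 3 matched 3 RefSeq variants each. The probe of variant 1 is lower in eIF6 shRNA cells in both fractions, by 1.91 log2 units on polysomes, the probe of variant 2 is lower on polysomes, and the other probes overlap between the shRNAs in both fractions.

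The change in translational efficiency sets both fractions against each other. Of the 80 genes 2 fell, Rpl21 and Rps6, and none rose, against 1.1% of all genes that fell and 0.403% that rose. At an unadjusted p under 0.05, 26 of the 80 genes were lower and 1 higher (limma), against 7.36% and 5.14% of all genes. The median change was -0.17 over the 80 genes (-0.18 over the large and -0.17 over the small subunit) and 0.02 over all genes. Values lay below 0 for 60 of the 80 genes, which were 37 of 47 large and 23 of 33 small subunit genes, and for 47.5% of all genes. The median of the members minus that of all genes was -0.19, and it was below 0 under every setting tried, from -0.12 (brightest probe of each gene) to -0.41 (scaling to the 75th percentile or to the spike-in probes). Within slides the median of the members ranged from -0.24 to -0.03.

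Rpl21 had a polysomal signal of 10.48, 10.58, 10.65 and 10.26 in scramble cells and of 10.63, 10.42, 10.36 and 10.31 in eIF6 shRNA cells. These groups overlapped, unlike its subpolysomal values given above. Its change in translational efficiency was -0.78 (SE 0.14, 0.581-fold, limma adjusted p = 0.00918). Each of its 3 probes pointed down, with -1.06, -0.85 and -0.44. Rps6 had a polysomal signal of 15.07, 15.02, 14.96 and 15.23 in scramble cells and of 15.02, 15.16, 14.90 and 15.06 in eIF6 shRNA cells, again with overlap. Its change in translational efficiency was -0.48 (SE 0.11, 0.716-fold, limma adjusted p = 0.0383), with -0.48, -0.24 and -0.73 for its 3 probes. The sign was the same in all 4 slides, from -1.17 to -0.49 for Rpl21 and from -0.56 to -0.34 for Rps6. Leaving out 1 replicate ended the call for Rps6 each time, with adjusted p-values of 0.073 to 0.372 (limma), and that for Rpl21 without replicate 1, 2 or 3, with 0.098 to 0.163. With the brightest probe of each gene, or with spike-in scaling, 0 members were called. Both fractions of a culture come from a gradient, and with the culture (shRNA and replicate number) as a block 0 members were called, with adjusted p-values of 0.0892 for Rpl21 and 0.188 for Rps6 (limma). With the replicate number as a block Rpl21 was called (0.0313) and Rps6 was not (0.0624).

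**Figure D3:**
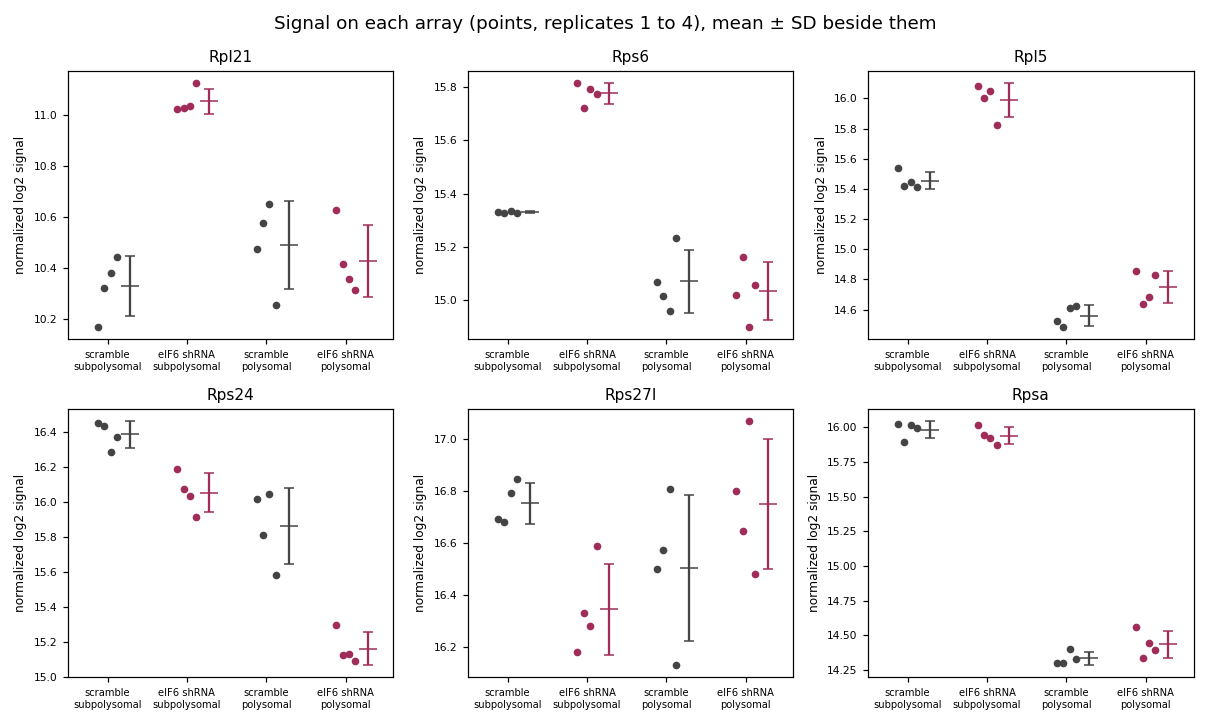
Normalized log2 signal of Rpl21, Rps6, Rpl5, Rps24, Rps27l and Rpsa (panels) on each of the 16 arrays, by fraction and shRNA, with the group mean and SD (n = 4). Rpl21, Rps6 and Rpl5 are higher in eIF6 shRNA than in scramble subpolysomal RNA, Rps24 is lower in both fractions, and Rpsa differs between fractions and not between shRNAs.

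The size of these changes went with the brightness of the probe. The 187 probes were sorted by their mean log2 signal. The median change in translational efficiency was -0.55 over the 14 probes under 10, -0.48 over the 16 from 10 to 14, -0.22 over the 54 from 14 to 17 and -0.08 over the 103 at 17 and above. The medians of all probes in the same ranges were 0.03, 0.01, 0.01 and -0.01. The subpolysomal medians of the members went from 0.57 in both lower ranges to 0.21 and 0.10. The fall was thus larger on dim probes. Among the 62 genes with several probes, the dimmest probe was lower in translational efficiency than the brightest in 43, with medians of -0.26 and -0.10. Whether the scanner or the hybridization loses proportion at the bright end was not tested. The sign differed between probes of the same gene in 21 of the 62 genes. Whether the probes also bind RNA of the pseudogenes that this family is known for was not tested.

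**Figure D4:**
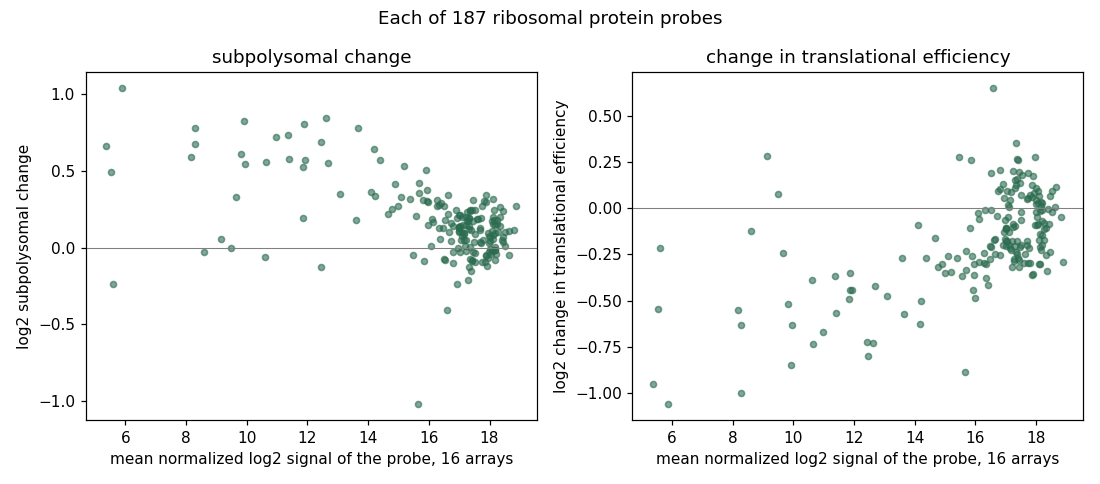
Mean log2 signal of each of the 187 probes of ribosomal protein genes (x axis) against its subpolysomal change and its change in translational efficiency (y axes, log2). Changes are widest among dim probes and narrow towards 0 at 17 and above, where 103 of the probes lie.

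The ratio of polysomal to subpolysomal signal was spread widely over the family, and also between probes of the same gene. In scramble cells it ran from -0.85 to 2.74 over the probes of Rps27a. Among the 62 genes with several probes, the scramble ratio was lower on the dimmest probe than on the brightest in 44. The medians of these probes were -0.34 and 0.05. In scramble cells the ratio was below 0 in 37 of the 80 genes and above 0 in 25 past the threshold, against 28.4% and 31.7% of all genes. In eIF6 shRNA cells it was below 0 in 43 and above 0 in 16, against 28.7% and 32.1%. By subunit, 19 large and 18 small subunit genes were lower and 18 large and 7 small subunit genes were higher in scramble cells. In eIF6 shRNA cells 23 and 20 were lower and 11 and 5 higher. The median ratio was -0.17 in scramble cells (0.05 over the large and -0.26 over the small subunit) and -0.30 in eIF6 shRNA cells (-0.21 and -0.34), where that of all genes was 0.04 and 0.03. Without the arrays of replicate 4 the scramble median was -0.09. The sign of these ratios depended on the scaling between fractions. In scramble cells 74 genes were lower and 1 higher with scaling to the 75th percentile, 0 and 19 with scaling to the spike-in probes, and 10 and 64 when each fraction was normalized on its own. Under these 3 scalings the median of all genes was -0.34, 1.52 and 1.38, and the median of the members minus that of all genes was -0.76, -0.77 and -0.87. This difference was -0.21 with quantile normalization of all arrays, and -0.0028 when the brightest probe stood for each gene.

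**Figure D5:**
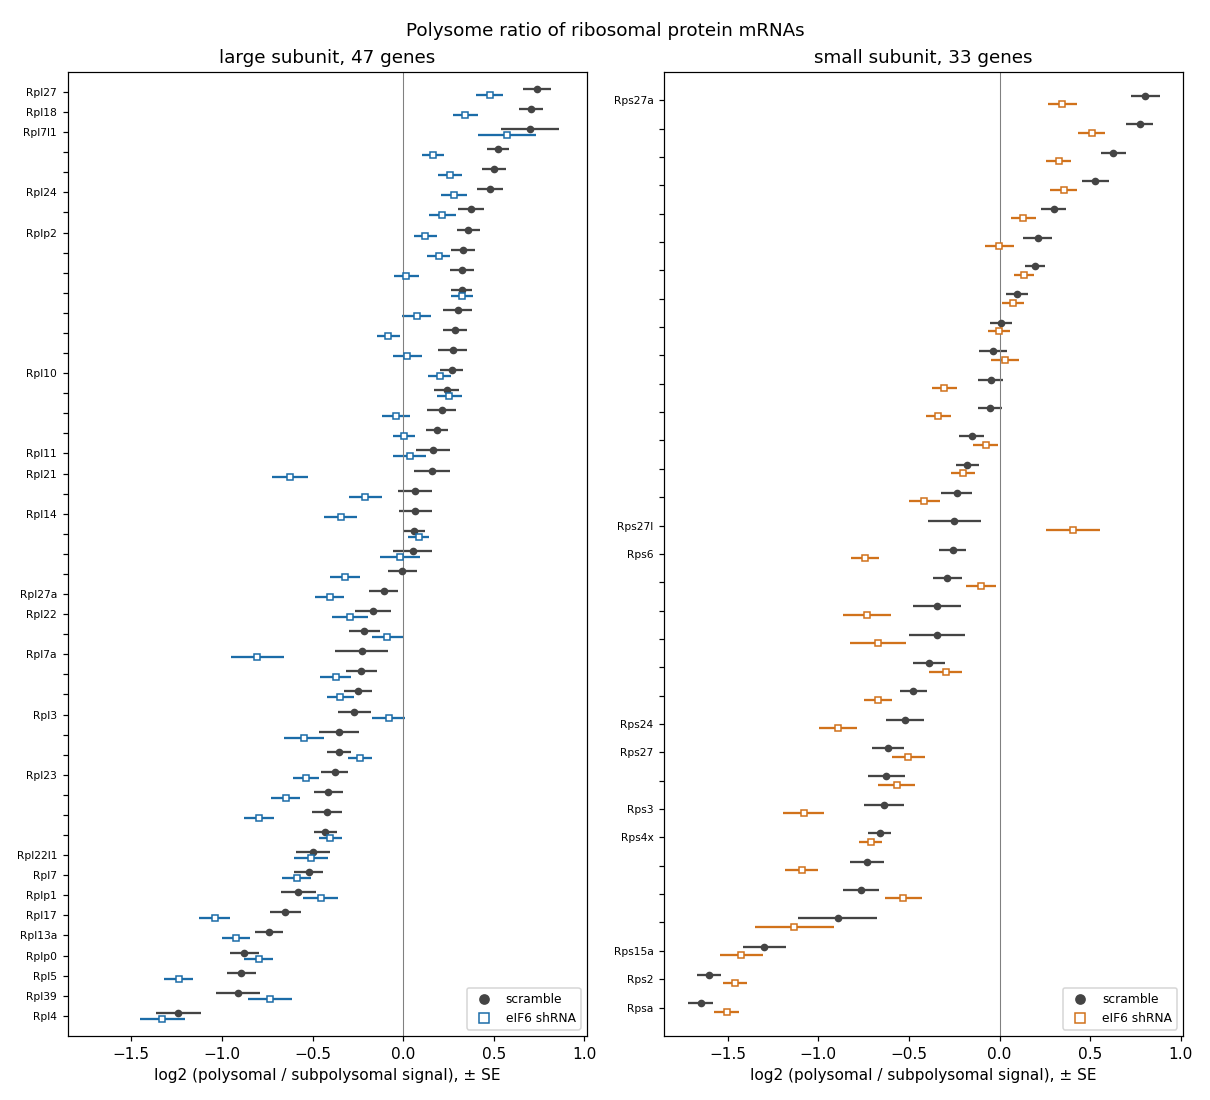
Polysomal minus subpolysomal log2 signal with its SE (4 arrays per group) for the 80 ribosomal protein genes in scramble and eIF6 shRNA cells, with the large and the small subunit in separate panels, after quantile normalization of all arrays, with names for genes described in the text. The scramble ratio runs from -1.65 for Rpsa to 0.80 for Rps27a, and the eIF6 shRNA ratio from -1.51 for Rpsa to 0.57 for Rpl7l1.

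The lowest ratio was that of Rpsa, a small subunit protein also known as the laminin receptor. In scramble cells its signal was 16.03, 15.89, 16.02 and 15.998 in subpolysomal and 14.30, 14.30, 14.40 and 14.33 in polysomal RNA. In eIF6 shRNA cells it was 16.02, 15.95, 15.93 and 15.87, and 14.56, 14.34, 14.45 and 14.39. The fractions were far apart and the shRNAs overlapped within each fraction. The ratio was -1.65 in scramble cells (SE 0.07, 0.319-fold, limma adjusted p = 1.26e-10) and -1.51 in eIF6 shRNA cells. Its 4 probes on chromosome 9 shared the sign and not the size, with -2.43, -0.67, -2.75 and -0.75 in scramble cells.

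Rps2 came next with a ratio of -1.60 in scramble cells (SE 0.07, limma adjusted p = 8.34e-11). Its polysomal values of 16.31, 16.36, 16.41 and 16.43 lay below all of its subpolysomal values. Rps15a had -1.30, but this came from 1 dim probe with -3.54, since the other 2 gave -0.13 and -0.22. Rpl4 had -1.24 and Rpl39 -0.91. For Rpl39, 1 dim probe gave -1.86 and the others -0.51 and -0.36. The sign of Rpl4 turned with spike-in scaling (0.67) and with separate normalization of the fractions (0.52), and that of Rpl39 with spike-in scaling (0.03).

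The highest ratio was that of Rps27a, which is made as a fusion with ubiquitin. Its subpolysomal signal in scramble cells was 12.23, 12.41, 12.29 and 12.36 and its polysomal signal 13.15, 13.16, 13.25 and 12.94, without overlap, which is a ratio of 0.80 (SE 0.08, 1.74-fold, limma adjusted p = 6.28e-07). Its probes gave 0.52, 2.74 and -0.85, so that they did not share the sign. The 2.74 came from the dimmest probe, at a mean log2 signal of 5.37, and the 0.52 from the brightest, at 18.34. Over 16 alternatives the ratio of Rps27a ranged from 0.09 to 2.74. The call was lost in 1 of them (limma adjusted p = 0.582). Among the 5 highest were also the large subunit genes Rpl27 with 0.74, Rpl18 with 0.71 and Rpl7l1 with 0.70, all past the threshold. With scaling to the 75th percentile Rpl27 and Rpl18 turned to -0.12 and -0.66.

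Members of known position in the ribosome are given next, and differences between them were not tested. The stalk, which recruits elongation factors, is formed by Rplp0, Rplp1 and Rplp2. Rplp0 and Rplp1 had polysome ratios of -0.88 and -0.58 in scramble cells and of -0.80 and -0.46 in eIF6 shRNA cells, while Rplp2 had 0.36 and 0.12. In scramble cells the probes of Rplp0 gave -1.02, -0.16 and -1.45 and those of Rplp1 -0.71 and -0.44, and Rplp2 has 1 probe. In subpolysomal RNA Rplp2 rose by 0.24 (SE 0.06, limma adjusted p = 0.0132), and the changes of Rplp0 and Rplp1 were -0.01 and 0.01.

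At the eIF6 site of the large subunit, Rpl23 rose in subpolysomal RNA by 0.29 (SE 0.07, 1.22-fold, limma adjusted p = 0.00956), with 0.78, 0.11 and -0.02 for its 3 probes. Rpl24 had 0.16 (adjusted p = 0.134). Their polysomal changes were 0.13 and -0.04 and their changes in translational efficiency -0.16 and -0.20, none past the threshold. Of the 5S particle, Rpl5 rose in subpolysomal RNA as given above, whereas Rpl11 had 0.08 (SE 0.09, limma adjusted p = 0.597). On polysomes Rpl5 had values of 14.52, 14.48, 14.61 and 14.62 in scramble cells and of 14.85, 14.64, 14.68 and 14.83 in eIF6 shRNA cells, and its change of 0.19 did not pass the threshold (adjusted p = 0.113). The polysome ratio of Rpl5 was -0.89 in scramble and -1.24 in eIF6 shRNA cells, that of Rpl11 0.16 and 0.04.

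Some ribosomal proteins have a second, diverged copy. Rps27l, a copy of Rps27 whose gene is a target of p53, had subpolysomal values of 16.69, 16.68, 16.79 and 16.84 in scramble cells and of 16.18, 16.33, 16.28 and 16.59 in eIF6 shRNA cells. Its polysomal values were 16.50, 16.57, 16.80 and 16.13 in scramble cells and 16.80, 16.65, 17.07 and 16.48 in eIF6 shRNA cells. The subpolysomal groups were apart and the polysomal groups overlapped. Its change in translational efficiency of 0.65 was the highest of the family and did not pass the threshold (SE 0.21, limma adjusted p = 0.163), nor did its subpolysomal change of -0.41 (adjusted p = 0.0575). Rps27 had 0.11 and -0.03.

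Among the other pairs, only Rpl22 passed the threshold in an eIF6-dependent change. Rpl22 rose in subpolysomal RNA by 0.41 (limma adjusted p = 0.00717), and Rpl22l1 had -0.08 (adjusted p = 0.585). Rpl7 and Rpl7l1 had subpolysomal changes of 0.17 and -0.03 and polysome ratios in scramble cells of -0.52 and 0.70, both past the threshold. Rpl3, Rpl10 and Rpl39, whose copies Rpl3l, Rpl10l and Rpl39l were not tested, had subpolysomal changes of 0.07, 0.10 and 0.02. Rpl3l and Rpl39l were well above background on 0 arrays, Rpl10l on 3 and Rps4y2 on 1. Rps4x, the X-linked copy, had a subpolysomal change of 0.05 and polysome ratios of -0.66 and -0.71. Differences between the members of a pair were not tested.

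Members with and without an annotated tract lay close to each other. The median change in translational efficiency was -0.24 over the 13 tested genes with a C at the annotated start followed by at least 4 C or T, Rps6 among them. It was -0.17 over the other 46. The subpolysomal medians were 0.21 and 0.18, and the polysome ratios in scramble cells -0.05 and -0.20. Genes with a pyrimidine run beside the annotated start, such as Rpl18, or over it with a T at that base, such as Rpl27a, are in the second set. The first set also holds genes whose run begins before the start, such as Rpl14.

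Another 20 mRNAs known to carry a TOP tract, those of elongation and initiation factors among them, were all tested. In subpolysomal RNA 8 rose (40%, against 11.9% of all genes) and none fell (11 higher and 0 lower at an unadjusted p under 0.05, limma), with a median of 0.26 and 18 values above 0. On polysomes 3 rose (15%, against 11.1% of all genes), with a median of 0.06. In translational efficiency 0 were called (3 lower and 1 higher at an unadjusted p under 0.05, limma), with a median of -0.15 and 17 values below 0. Their polysome ratio was lower in 11 and higher in 3 in scramble cells and lower in 11 and higher in 2 in eIF6 shRNA cells, with medians of -0.23 and -0.54. Over all genes 28.4% were lower and 31.7% higher in scramble cells, and 28.7% and 32.1% in eIF6 shRNA cells.

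Among them, Eef2, the elongation factor that moves the ribosome along the mRNA, rose by 1.19 on polysomes and by 0.63 in subpolysomal RNA. Eif3f, Eif3e and Eif4b, of the initiation machinery, rose in subpolysomal RNA by 0.71, 0.60 and 0.53. On polysomes Eif3f rose by 0.62, while Eef1a1 had 0.49 (limma adjusted p = 0.088) and Vim -0.38 (0.314). The changes in translational efficiency of largest size were those of Eef2 (0.56), Eif3e (-0.49), Eef1d (-0.41) and Npm1 (-0.39), with adjusted p-values of 0.175 to 0.431.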

How the data were processed

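RNA of 16 gradient fractions (4 groups, 4 arrays each) was hybridized to one-colour Agilent arrays. The authors deposited, for every array, the intensity of each spot, after the background correction of Feature Extraction and before any normalization between arrays. A second deposited set holds quantile normalized log2 values, whose correlation with the log2 intensities of the same array ranged from 0.995 to 1.000. The submitters' processing notes name Feature Extraction 10.7.7.1, while the deposited files' headers name 10.7.3.1 and a scan at 5 micrometres. Probe positions (mm9) and gene names were taken from the files.

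In R 4.3.3 (data.table, version 1.17.8), control spots and outlier flags were left out (82 missing values of a probe on an array, 0 of them in ribosomal protein probes), and repeated spots were averaged. Kept probes were well above background on 2 or more arrays of a group (25262 of 39429 probes). They were quantile normalized as log2 values and averaged per gene, and limma 3.58.1 was fitted with 4 group means over 19367 genes, 47 of which lacked a value on some array. The procedure was tested on simulated data. Plots were made in Python 3.11.15 with matplotlib 3.10.9.

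The members and lists were chosen with earlier results of these data known. Named are the stalk proteins and Rpsa, the eIF6 site, the 5S particle and Rps6, the paralogues, up to 10 called members per direction and shRNA comparison, the 5 highest and 5 lowest polysome ratios in scramble cells, up to 4 other TOP mRNAs per comparison and Eif6, and 1 gene that the rule names is not reported here. Rps24 probes were singled out after their values were seen. Alternatives were scaling to 8 spike-in probes or to the 75th percentile, each fraction normalized on its own, normexp with an offset of 50, other detection filters, the brightest probe, the authors' log2 table, the slide, the replicate number or the culture as a block, and each replicate left out. The dimmest kept probe was added after seeing the data. The adjustment was made over all genes at a threshold of 0.05. Motifs were counted in RefSeq start windows (GRCm38.p6), whose coordinates were not mixed with mm9.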

Additional observations from a re-analysis of the deposited data

Results flagged for a closer look

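The interaction term of the limma fit, for a shRNA effect that differs between the fractions, passed the threshold for Eif6 (-1.07), Rpl21 (-0.78) and Rps6 (-0.48). Leaving out each replicate in turn kept the call of Rpl21 in 1 of 4 fits and that of Rps6 in 0. With the culture as a block, or with the brightest probe, Rpl21 and Rps6 were not called. The values of both fractions are given above, and for Rpl21 and Rps6 the polysomal groups overlapped while the subpolysomal groups did not.

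Of 176 sets of 4 arrays examined for a value far from the other 3, 8 had one, and chance alone gives about 1 in 20. In scramble subpolysomal RNA, Rps15a was low on replicate 4 (13.56, nearest 13.99), and the median deviation of the members was low on replicate 3 (-0.040, nearest 0.017). In scramble polysomal RNA, Rps4x was low on replicate 3 (16.21, nearest 16.31), Rpl14 was low on replicate 4 (15.33, nearest 15.61) and Vim was high on replicate 4 (14.72, nearest 13.78). In eIF6 shRNA subpolysomal RNA, Rpl21 was high on replicate 4 (11.13, nearest 11.04). In eIF6 shRNA polysomal RNA, Rpl11 was high on replicate 1 (16.03, nearest 15.89) and Rps4x on replicate 4 (16.35, nearest 16.28).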

How the results depend on the processing

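With scaling to the 75th percentile the members' median was 0.48 in the subpolysomal change, -0.44 in translational efficiency, -1.10 in the scramble ratio and -1.58 in the eIF6 shRNA ratio, and calls were 49 higher and 0 lower (subpolysomal), 6 lower (translational efficiency), 74 lower and 1 higher (scramble ratio) and 79 lower and 1 higher (eIF6 shRNA ratio). With spike-in scaling the medians were -0.41 (polysomal), 0.20 (subpolysomal), -0.62 (translational efficiency), 0.76 (scramble ratio) and 0.11 (eIF6 shRNA ratio), and calls were 0 lower on polysomes, 0 higher and 0 lower in subpolysomal RNA, 0 lower in translational efficiency, 0 lower in the scramble ratio, and 1 lower and 2 higher in the eIF6 shRNA ratio. The mean log2 signal of the 8 spike-in probes varied between arrays with an SD of 0.395. With each fraction normalized on its own the ratios had medians of 0.51 and 0.33, with 10 lower and 64 higher, and 7 lower and 57 higher, 1 member rose on polysomes and 7 fell in translational efficiency. With normexp these last counts were also 1 and 7.

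With the brightest probe the medians were 0.12 (subpolysomal), 0.023 and -0.051 (ratios), with 1 higher and 0 lower on polysomes, 1 lower in subpolysomal RNA, 0 lower in translational efficiency and 26 lower in the eIF6 shRNA ratio. With the dimmest kept probe that ratio had a median of -0.40, 2 were higher and 2 lower on polysomes, 1 was lower in subpolysomal RNA and 4 in translational efficiency. A filter for all 4 arrays of a group and the slide as a block each gave 1 higher on polysomes, and no filter gave 1 lower in translational efficiency. In the scramble ratio Rpl18 (-0.66) and Rpl27 (-0.12) turned with scaling to the 75th percentile, as did Rps2 in subpolysomal RNA (0.035). Rpl39 (0.029) and Rpl4 (0.67) turned with spike-in scaling, and Rpl4 (0.52) with separate normalization. The cause was not tested.

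Leaving out each replicate in turn gave 0 to 2 higher and 1 lower on polysomes, 9 to 36 higher and 0 to 3 lower in subpolysomal RNA, 0 to 2 lower in translational efficiency (0 without replicate 1, 2 or 3), 28 to 34 lower and 18 to 28 higher in the scramble ratio, and 39 to 43 lower and 9 to 18 higher in the eIF6 shRNA ratio (9 without replicate 2), with fewer arrays in each fit. The deviations of arrays with the same number had correlations of both signs (-0.21 to 0.41 over 24 pairs). The highest was between the polysomal arrays of replicate 4. The main fit did not pair arrays by number. Both fractions of a culture come from a gradient, and these correlations do not show that the fractions are independent. With the replicate block 1 member was higher on polysomes, 25 were higher in subpolysomal RNA and 1 was lower in translational efficiency, and with the culture as a block 0 were. The authors' log2 table gave 27 higher in subpolysomal RNA and 2 lower in translational efficiency. By the detection flag, 186 of 187 probes of the members were well above background on all arrays. The changes were larger on dim probes, and a part of background in them was not tested.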

Other observations

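The 73 mitochondrial ribosomal protein mRNAs, which are encoded in the nucleus and serve the ribosome of mitochondria, were read beside the cytosolic family. On polysomes 7 fell and 1 rose, with a median change of -0.07, against 10.7% and 11.1% of all genes (9.59% and 1.37% of this family). In subpolysomal RNA 8 fell and 5 rose, with a median of -0.01 (11% and 6.85% of the family, against 12.3% and 11.9% of all genes). The shares that fell lie near those of all genes. In translational efficiency 0 were called (6 lower and 2 higher at an unadjusted p under 0.05, limma), with a median of -0.03. Their polysome ratio was higher in 41 and lower in 13 genes in scramble cells, with a median of 0.40, and higher in 43 and lower in 11 in eIF6 shRNA cells, with a median of 0.37. Over all genes 31.7% were higher and 28.4% lower in scramble cells, and 32.1% and 28.7% in eIF6 shRNA cells. The difference between both families was not tested.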
